A study of Mus musculus with 6 samples.

Results

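Oxidative phosphorylation genes encode the subunits of the enzymes that make ATP in the inner membrane of the mitochondrion. They were taken from the count table as protein-coding rows whose symbol begins with Nduf, Uqcr, Cox4, Cox5, Cox6, Cox7, Cox8, Atp5 or mt-, together with Sdha, Sdhb, Sdhc and Sdhd. This rule, which uses names and not measured values, found 107 genes among the 54532 rows of the table. Of these, 94 lie in the nuclear genome and 13 are the full set of 13 protein-coding genes on chromosome MT. The names also bring in 9 proteins that are not subunits of the finished enzymes, the complex I assembly factors Ndufaf1 to Ndufaf8 and the coupling factor B gene Atp5s. Ndufa4 and its relative Ndufa4l2 carry complex I names but are placed here with complex IV.

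The libraries came from infarct macrophages of 12-week-old C57BL/6 mice, collected 7 days after permanent occlusion of the coronary artery. Cells from individual hearts were depleted of Ly6G+ neutrophils and then enriched for CD11b on magnetic columns, and polyadenylated RNA was sequenced. The 3 ITGA5 fl/fl mice carried loxP-flanked alleles of Itga5, which encodes the integrin α5 chain, without Cre. The 3 Myα5KO mice carried the same alleles and LyzM-Cre, a recombinase driven by the lysozyme M promoter. This driver is active in the myeloid lineage as a whole, neutrophils included, and not in macrophages alone.

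In the respiratory chain, complexes I and II pass electrons from NADH and succinate to ubiquinone, complex III passes them on to cytochrome c, and complex IV hands them to oxygen. Complexes I, III and IV pump protons, and complex V, the ATP synthase, uses the proton gradient to make ATP. All complexes except complex II combine subunits made from both genomes. Macrophages activated by bacterial products rely on glycolysis, whereas macrophages of the repair phase are known for a larger use of oxidative phosphorylation. The comparison asked whether the transcripts of this machinery differed between infarct macrophages with and without integrin α5.

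Depth was similar across libraries, with 15424451 to 18419287 counts each. The targeted gene followed the labels. Itga5, given in CPM (counts scaled to a common library size), stood at 653, 568 and 599.6 in the controls and at 49.99, 49.0 and 47.1 with Cre, which left 8.02% of the control level (log2 fold change -3.64, SE 0.08, edgeR adjusted p 4.42e-12). All 10 macrophage and monocyte markers examined passed the filter on low counts, and their summed level was 19000 to 19210 CPM in ITGA5 fl/fl and 17030 to 17850 CPM in Myα5KO libraries. Of the 10, Cd14 was lower (4755 ± 160 against 3489 ± 239 CPM, SD, n = 3 each, edgeR adjusted p 0.00413) and Fcgr1 was higher (195 ± 7.58 against 235 ± 8.49 CPM, edgeR adjusted p 0.0215). These 2 are 20% of the list, beside 8.75% of all genes. Without Cd14, a choice made after seeing the data, the sums overlapped, at 14190 to 14560 CPM and 13590 to 14520 CPM. Of 9 tested granulocyte markers, 7 were higher in Myα5KO libraries (77.8%, beside 3.56% of all genes). The granulocyte sums were 253 to 379 CPM in these libraries, against 185 to 228 CPM in the controls. Of 9 tested cardiomyocyte markers, 2 were lower (Actc1 and Tnnt2, 22.2%, beside 5.19% of all genes). The cardiomyocyte sums were 15.7 to 20.4 CPM in Myα5KO libraries, against 22.7 to 25.4 CPM in the controls. None of the markers in these 3 lists was at 0 in all libraries. The part of these other cells in the values below was not tested, and in bulk libraries fewer cells of a type cannot be told apart from less RNA per cell.

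No oxidative phosphorylation gene differed between the groups past the threshold. Of the 107 genes, 102 passed the filter on low counts (90 nuclear and 12 mitochondrial), and 0 of the 102 had an edgeR adjusted p of 0.05 or less. Over the whole table the same test called 8.75% of 14522 genes, 3.56% higher and 5.19% lower in Myα5KO macrophages. Without adjustment, 4 of the 102 (3.92%) had a p under 0.05, against 23.1% of all genes. The 3 libraries of one group lay entirely above or below the 3 of the other for 11 of the 102 (10.8%), against 28.6% of all genes. DESeq2 and limma-voom also called 0, with 3 genes each at an unadjusted p under 0.05. Under scaling by library totals alone, 3 members were called, Ndufaf5, Atp5o and Uqcrc2, all higher, while 11.9% of all genes were called.

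The fold changes themselves were small. Their median was -0.01 on the log2 scale, with 43 positive and 59 negative values, beside a median of 0.01 over all tested genes. These signs depended on the scaling: with library totals only, the nuclear members had 62 positive and 28 negative values (median 0.07), and the median of all genes moved to 0.10. The median size without regard to sign was 0.08, against 0.15 for all tested genes, and 99 of the 102 (97.1%) lay within 1.25-fold, against 77.6% of all genes. Small fold changes are also a property of well expressed genes, so genes of like level were set side by side. Between 10 and 50 CPM the median size was 0.09 for 44 nuclear members and 0.12 for all 4477 genes, and between 50 and 200 CPM it was 0.07 for 29 nuclear members and 0.10 for all 2853 genes.

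**Figure D1:**
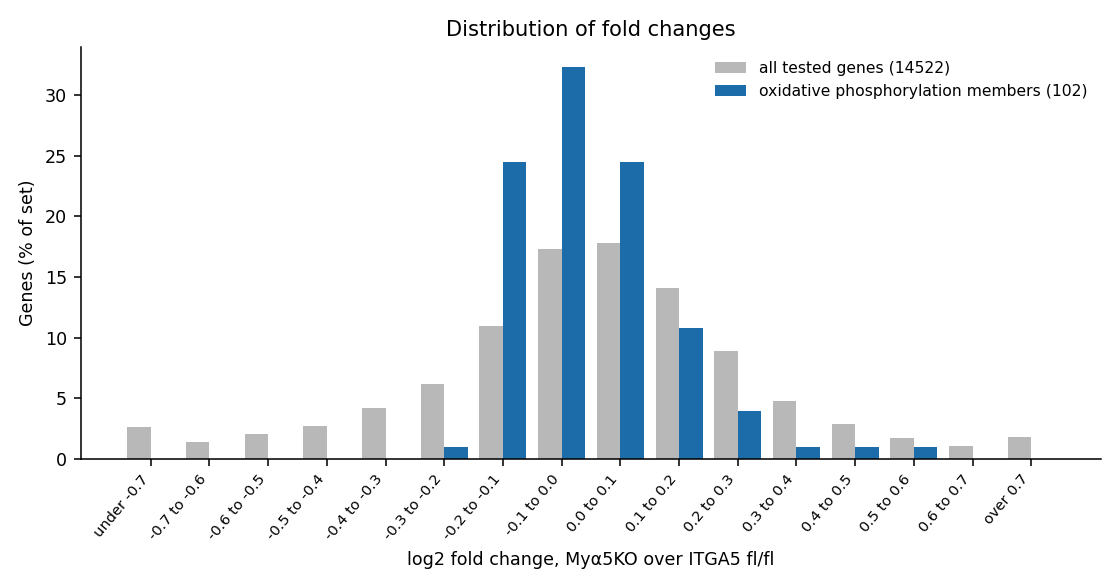
Percentage of genes in each interval of log2 fold change (Myα5KO over ITGA5 fl/fl, edgeR) for all 14522 tested genes (grey) and the 102 tested oxidative phosphorylation genes (blue). The blue bars are confined to the range from -0.29 to 0.53, and 99 of the 102 lie within 1.25-fold, whereas 77.6% of all genes do.

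A gene that misses the threshold is not shown to be equal in both groups, so the width of each interval matters. The 95% confidence interval of the fold change lay within 2-fold in either direction for all 102 genes, and within 1.5-fold for 89. The other 13 were Atp5k and the scarce transcripts mt-Nd3, mt-Nd4l, Ndufaf1, Ndufaf4, Ndufaf5, Ndufaf6, Ndufb2, Cox4i2, Cox6a2, Cox6b2, Cox7a1 and Ndufa4l2. Their intervals reached down to -0.94 for Cox4i2 and up to 0.93 for Ndufaf5 on the log2 scale.

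**Figure D2:**
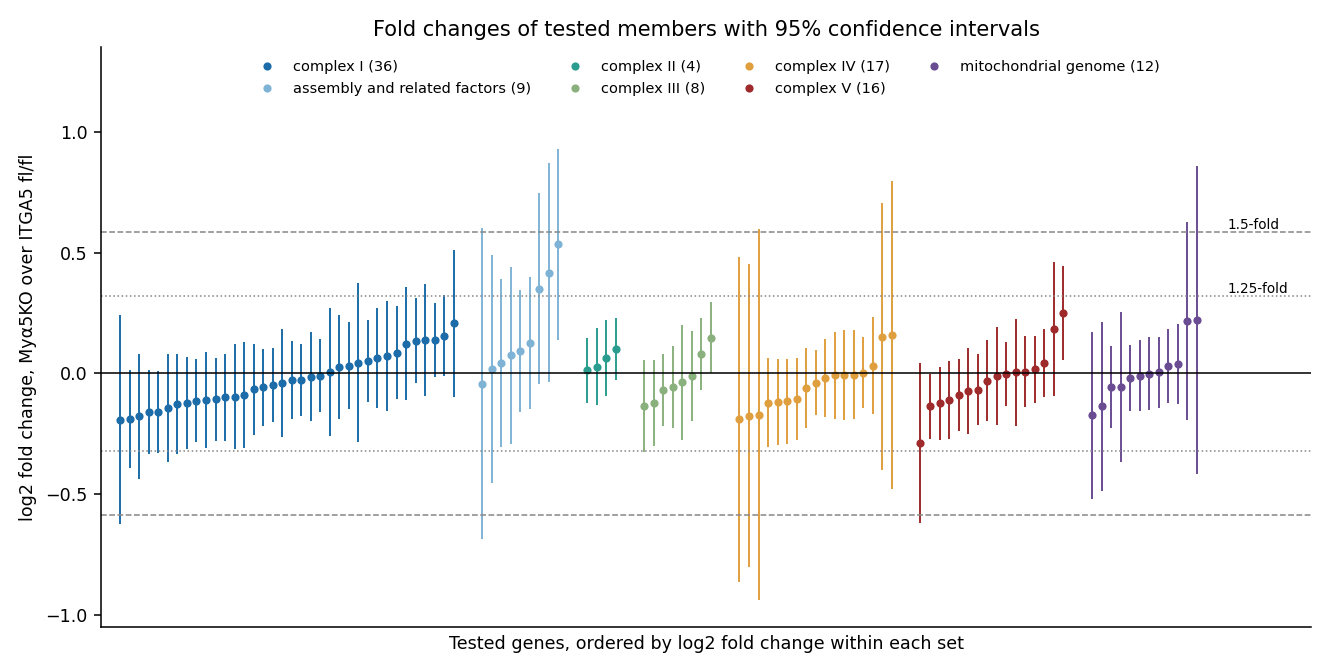
Log2 fold change (Myα5KO over ITGA5 fl/fl) of each tested member as a point with its 95% confidence interval as a line, coloured by complex, with the number of genes in brackets. Dotted and dashed lines mark 1.25-fold and 1.5-fold. Intervals of 89 of the 102 genes stay inside the dashed lines, and the longest belong to scarce genes among the assembly factors, complex IV isoforms and mitochondrial genes.

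Levels per length, in FPKM averaged over the 6 libraries, spread over orders of magnitude between the genomes. The mitochondrial transcript mt-Co1 stood at 3401 FPKM, while the most abundant nuclear member, Cox8a, reached 228 FPKM and the median nuclear member 23.7 FPKM. Within each complex the highest nuclear subunit was Ndufa2 (91.9 FPKM) for complex I, Sdhd (52.2 FPKM) for complex II, Uqcr10 (65.4 FPKM) for complex III, Cox8a for complex IV and Atp5a1 (129 FPKM) for complex V. The small accessory subunits thus topped complexes I, III and IV, and the catalytic-head subunit α topped the ATP synthase. The deposited FPKM divide by the summed exon length of the gene, so a long annotated model lowers the value. Ndufb2 has such a model (5628 bases, 0.52 FPKM). It was also low in CPM, which do not divide by length, at means of 3.13 (ITGA5 fl/fl) and 2.74 (Myα5KO).

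**Figure D3:**
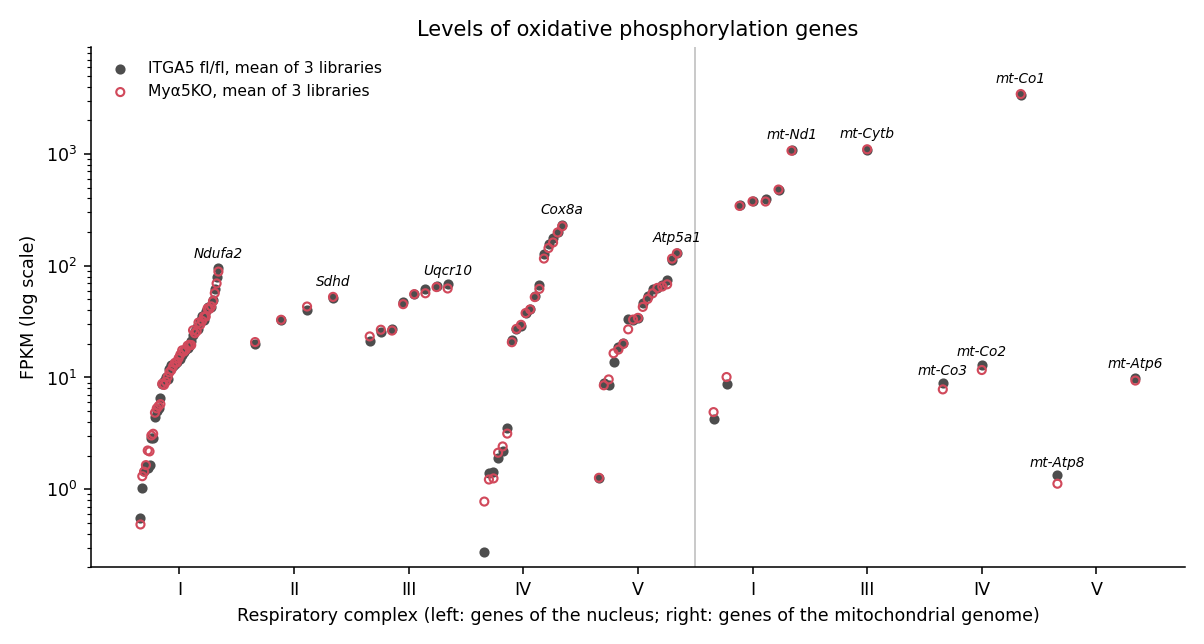
Mean FPKM (log scale) in ITGA5 fl/fl (filled) and Myα5KO (open) libraries, n = 3 each, for every member with a count, sorted by level within each complex. Nuclear genes are on the left and mitochondrial genes on the right of the vertical line. The filled and open points of a gene nearly coincide, from mt-Co1 at 3401 FPKM down to genes near 1 FPKM, with the largest visible gap at Cox8b, which had at most 9 counts in a library.

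Summed over genes, the nuclear members had 5145, 5359 and 5558 CPM in ITGA5 fl/fl replicates 1 to 3 and 5101, 5165 and 5587 CPM in Myα5KO replicates 1 to 3. The groups overlapped, at means of 5354 ± 207 and 5285 ± 264 CPM (SD, n = 3 each). The mitochondrial members summed to 9837, 9262 and 9249 CPM in the controls and 9264, 9614 and 9877 CPM in Myα5KO macrophages, which again overlapped. The ratio of mitochondrial to nuclear sums was 1.91, 1.73 and 1.66 in the controls and 1.82, 1.86 and 1.77 in Myα5KO macrophages. As a share of raw counts, before scaling, the mitochondrial members took 0.952%, 0.906% and 0.895% in the controls and 0.955%, 0.979% and 1.02% in Myα5KO libraries, which did not overlap. The scaling factors were 0.969 to 0.979 in the controls and 1.02 to 1.03 in Myα5KO libraries, so the separation of the raw shares was present before and absent after scaling.

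**Figure D4:**
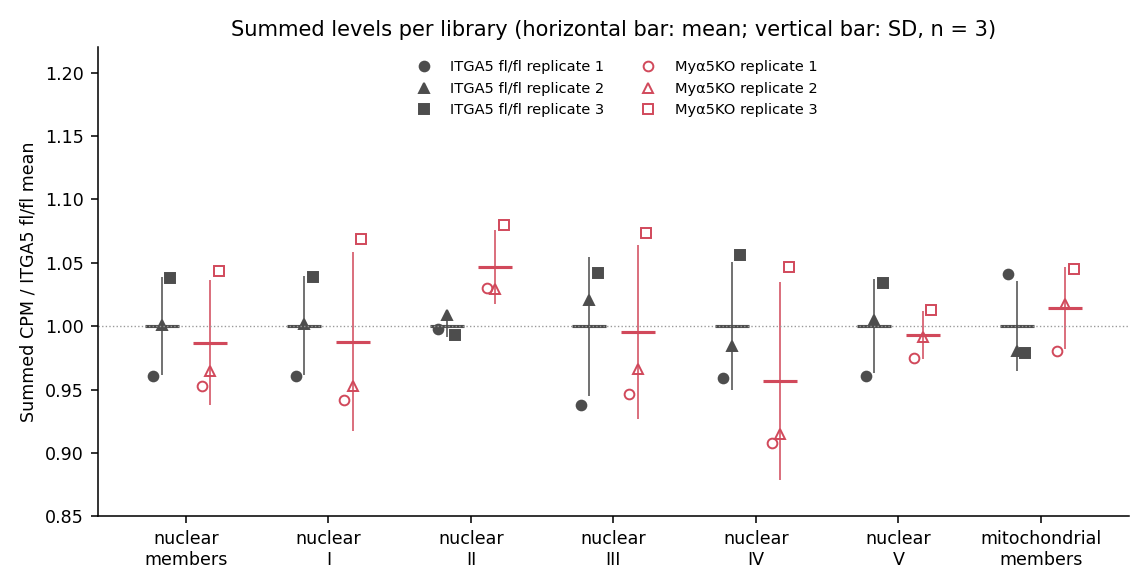
Summed CPM of each set in each library divided by the ITGA5 fl/fl mean of that set, with replicate numbers as symbols, horizontal bars for the group mean and vertical bars for the SD (n = 3). The groups overlap in each set except nuclear complex II, where the Myα5KO libraries (380 to 399 CPM) lie above the controls (367 to 373 CPM).

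The libraries did not place all members alike. Myα5KO replicate 3 was the highest of its group for 68 of the 90 tested nuclear members and 9 of the 12 mitochondrial ones. ITGA5 fl/fl replicate 1 was the lowest of its group for 58 nuclear members but the highest for 8 mitochondrial ones. Without Myα5KO replicate 3, the test still called 0 of the 102, but 20 (19.6%) had an unadjusted p under 0.05 and the nuclear median moved from -0.01 to -0.08, with 22 positive and 68 negative values. The share of all genes at that p was not determined for this setting. With all libraries it was 23.1%. The cytosolic ribosomal proteins had the same library stand apart, with 37250 CPM summed in Myα5KO replicate 3, while replicates 1 and 2 of that group had 31900 and 32760 CPM and the controls between 36060 and 37530 CPM. Whether these patterns share a source was not tested.

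Complex I, the NADH dehydrogenase, contributed 44 nuclear genes, all of them tested, with 21 positive and 23 negative fold changes. Its 7 nuclear core subunits carry the flavin and iron-sulfur centres and hold the catalytic route of the electrons. Ndufs1, an iron-sulfur subunit, had 34.8, 35.2 and 37.5 CPM in ITGA5 fl/fl and 38.5, 39.7 and 40.1 CPM in Myα5KO libraries. All 3 Myα5KO values lay above the controls by a narrow margin (log2 fold change 0.14, SE 0.07, edgeR adjusted p 0.271).

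The 29 accessory subunits of complex I, which surround the core and hold it together, had 10 positive and 19 negative values with a median of -0.07. Ndufa2 had 89.6, 95.9 and 99.9 FPKM in the controls and 77.9, 83.2 and 105 FPKM in Myα5KO libraries, so the knockout libraries spanned both ends of the range (log2 fold change -0.10, SE 0.10, edgeR adjusted p 0.620). Ndufs5 had the largest positive value of the nuclear complex I subunits, 0.21 (SE 0.14, edgeR adjusted p 0.409). Its libraries overlapped widely, with 22.3, 19.4 and 28.0 CPM in the controls and 23.4, 24.7 and 32.6 CPM in Myα5KO macrophages. Ndufb2 had the largest negative value, -0.19 (SE 0.20, edgeR adjusted p 0.623), at only 2.30 to 3.35 CPM. Ndufa9 lay above the controls in all Myα5KO libraries (35.9 to 37.9 CPM against 30.9 to 35.5 CPM), and Ndufv3 and Ndufb9 lay below them, with edgeR adjusted p of 0.250, 0.261 and 0.658.

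The assembly and related factors were scarce, at a median of 1.88 FPKM, and included the 3 largest positive fold changes among the members. Their median size without regard to sign was 0.09, beside 0.10 for the nuclear accessory subunits. Of 9 tested, 8 had a positive value and 3 (33.3%, beside 28.6% of all genes) were separated, each higher in Myα5KO libraries. Ndufaf5, a methyltransferase-like protein that acts on a core subunit during assembly, had 2.55, 2.70 and 3.02 CPM in the controls and 4.15, 4.23 and 3.63 CPM in Myα5KO libraries. The groups did not overlap, and the log2 fold change was 0.53 (SE 0.18, edgeR adjusted p 0.0936), the smallest p among the members (0.0305 to 0.239 for the smallest member p over the other settings tried). Ndufaf1 had 2.48, 2.47 and 2.45 CPM against 4.05, 3.05 and 2.79 CPM (edgeR adjusted p 0.257), and Ndufaf4 had 3.96, 4.17 and 3.98 CPM against 4.21, 4.82 and 6.42 CPM (edgeR adjusted p 0.278). In both genes a single Myα5KO library held most of the difference, replicate 1 for Ndufaf1 and replicate 3 for Ndufaf4. Ndufaf2 shares 65.6% of its exonic bases with exons of B230220B15Rik on the opposite strand, and its count is uncertain for that reason.

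Complex II, the succinate dehydrogenase, also serves the tricarboxylic acid cycle and has 4 subunits, all from the nucleus. All 4 fold changes were positive but small, between 0.01 and 0.10. Sdha, the flavoprotein that oxidizes succinate, had 170, 166 and 166 CPM in the controls and 180, 179 and 178 CPM in Myα5KO libraries. The replicates of each group agreed closely and the groups did not overlap, yet the difference was small (log2 fold change 0.10, SE 0.06, edgeR adjusted p 0.336). The membrane anchor Sdhd had 49.1, 54.8 and 51.5 FPKM against 50.3, 51.1 and 56.5 FPKM, which overlapped. Summed over the 4 genes, complex II had 369, 373 and 367 CPM in the controls and 381, 380 and 399 CPM in Myα5KO libraries, 1.05 times the control mean. The same sum in FPKM overlapped between the groups, at 143 to 147 FPKM and 146 to 155 FPKM.

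Complex III, the cytochrome bc1 complex, contributed 8 nuclear genes, with 2 positive and 6 negative values. Uqcrc2, a core protein of the matrix arm, had 53.8, 56.5 and 52.1 CPM in the controls and 56.6, 60.9 and 62.3 CPM in Myα5KO libraries. The groups did not overlap, but 1 control library and 1 Myα5KO library nearly met (log2 fold change 0.15, SE 0.07, edgeR adjusted p 0.214). Exons of Pdzd9 on the opposite strand cover 19.7% of its exonic bases. Uqcr11, a small subunit, had the largest negative value of this complex, with 37.5, 45.5 and 37.7 CPM against 36.7, 34.5 and 38.8 CPM (log2 fold change -0.14, SE 0.09, edgeR adjusted p 0.388). Its one high library was ITGA5 fl/fl replicate 2. Uqcr10, another small subunit, had 36.2, 42.2 and 41.8 CPM against 35.9, 35.2 and 39.4 CPM (log2 fold change -0.12).

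Complex IV, the cytochrome c oxidase, has 20 nuclear members here, of which 17 were tested, with 4 positive and 13 negative values. This complex has paired isoforms for several subunits, and the broadly expressed isoform dominated in each pair. Cox8a had 228, 222 and 239 FPKM in the controls and 207, 222 and 248 FPKM in Myα5KO libraries, whereas its heart and muscle partner Cox8b had 1 to 9 counts in a library and the testis isoform Cox8c none. Cox6a1 averaged 199 FPKM against 2.02 FPKM for the muscle isoform Cox6a2. Cox7a2 averaged 37.9 FPKM, its relative Cox7a2l 149.7 FPKM, and the muscle isoform Cox7a1 3.35 FPKM. Cox4i1 averaged 169 FPKM against 1.34 FPKM for Cox4i2, the isoform linked to hypoxia and lung. Cox6b1 stood at 121 FPKM beside 1.31 FPKM for Cox6b2, Cox7b at 40.6 FPKM beside 0 counts for Cox7b2, and Ndufa4 at 29.3 FPKM beside 2.30 FPKM for the hypoxia-inducible Ndufa4l2.

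None of these isoforms separated the groups. Cox4i1 had 162, 170 and 196 FPKM in the controls and 151, 158 and 176 FPKM in Myα5KO libraries (log2 fold change -0.12, SE 0.08, edgeR adjusted p 0.430). Among scarce isoforms the largest positive value was that of Cox6a2, 0.16 (SE 0.30), and the largest negative that of Cox6b2, -0.19 (SE 0.31), each smaller than its standard error. The heart and muscle isoforms Cox6a2 and Cox7a1 had 1.06 to 1.61 CPM and 1.59 to 2.41 CPM in the controls, and 1.21 to 1.81 CPM and 1.12 to 2.00 CPM in Myα5KO libraries. These ranges overlapped, as did those of the single cardiomyocyte markers Tnni3, Myl2, Mb, Myh6, Myl3, Ryr2 and Pln. Among the tested cardiomyocyte markers, only Actc1 and Tnnt2 had ranges that did not overlap, and neither did the sums given above. The ranges of Cox6a2 and Cox7a1 thus do not set these isoforms apart from most single cardiomyocyte markers.

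Complex V, the ATP synthase, contributed 18 nuclear genes, 17 of them tested, with 7 positive and 10 negative values. Of the 5 subunits of the catalytic F1 head, the α subunit gene Atp5a1 had 389, 402 and 429 CPM in the controls and 403, 426 and 398 CPM in Myα5KO libraries (log2 fold change 0.01, SE 0.07), and the β subunit gene Atp5b had 466, 488 and 484 CPM against 512, 496 and 473 CPM. Both overlapped. Atp5d, the δ subunit of the central stalk, had 139, 150 and 148 CPM against 130, 134 and 134 CPM. The groups of Atp5d did not overlap, with the Myα5KO libraries lower (log2 fold change -0.14, SE 0.06, unadjusted p 0.0468 and edgeR adjusted p 0.209).

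Atp5o encodes OSCP, the protein that ties the F1 head to the peripheral stalk. It had 25.9, 25.7 and 30.9 CPM in the controls and 30.9, 33.1 and 34.2 CPM in Myα5KO libraries. The highest control and the lowest Myα5KO library were all but equal (log2 fold change 0.25, SE 0.09, edgeR adjusted p 0.108). Exons of other genes cover 47.9% of its exonic bases, 12.3% on the same strand, and a second row of the same symbol with 0 counts overlaps it, so the count is uncertain. Atp5k, the dimer-forming subunit e, had the largest negative fold change of all members, with 20.6, 23.5 and 17.2 CPM against 20.5, 12.8 and 16.9 CPM (log2 fold change -0.29, SE 0.15, edgeR adjusted p 0.288). Its replicates spread as widely as the groups. The 3 genes that encode the identical mature subunit c of the rotor, Atp5g1, Atp5g2 and Atp5g3, had values of -0.07, -0.11 and -0.12, with overlapping libraries.

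The direction of the nuclear members went with gene length. Of 22 tested members of 1000 bases or less, 6 were positive and 16 negative (median -0.05), and of 33 members over 2000 bases, 20 were positive and 13 negative (median 0.02). All tested protein-coding genes of these lengths had medians in the same order, -0.02 (294 genes) and 0.02 (11047 genes). Spearman's rho between fold change and length was 0.29 across the 90 nuclear members and 0 across 12719 tested protein-coding genes. Genes within one experiment share their libraries, so both values are descriptions. The short members summed to 863, 914 and 942 CPM in the controls and 837, 830 and 965 CPM in Myα5KO libraries, again with Myα5KO replicate 3 at the top of its group.

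The 13 mitochondrial genes are read from long precursors of a compact circular genome and cut at the tRNAs between them. None of the 12 tested separated the groups, their fold changes lay between -0.17 and 0.22, and the smallest edgeR adjusted p was 0.539. Outside the protein-coding genes, the tRNA gene mt-Tn of the same genome was called lower, with 7.44, 8.52 and 7.74 CPM in the controls and 6.39, 4.44 and 5.15 CPM in Myα5KO libraries (log2 fold change -0.57, SE 0.16, edgeR adjusted p 0.0374). The other tested non-coding genes, mt-Rnr1, mt-Rnr2, mt-Tl1, mt-Tc, mt-Tl2 and mt-Tp, were not called (edgeR adjusted p 0.329 to 0.9325). mt-Co1, the catalytic subunit of complex IV that binds oxygen, had 5436, 5076 and 5136 CPM in the controls and 5095, 5444 and 5539 CPM in Myα5KO libraries (log2 fold change 0.04, SE 0.08). mt-Cytb, the cytochrome b of complex III, had 1303, 1235 and 1191 CPM against 1247, 1239 and 1327 CPM (log2 fold change 0.03, SE 0.07). Both genes had their control and Myα5KO libraries interleaved.

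Complex I takes 7 of the 13 genes. mt-Nd1, next to the ubiquinone site, had 1053, 1043 and 1020 CPM in the controls and 993, 1016 and 1090 CPM in Myα5KO libraries. Of the proton-pumping subunits, mt-Nd2 had 470.4 to 522 CPM in the controls and 496 to 516 CPM in Myα5KO libraries, mt-Nd4 had 517 to 535 CPM and 491 to 561 CPM, and mt-Nd5 ranged from 678 to 776 CPM in the controls and from 636 to 738 CPM in Myα5KO libraries. mt-Nd6, the only one of the 13 on the minus strand, had 184, 172 and 189 CPM against 179, 181 and 178 CPM (log2 fold change -0.02, SE 0.06). The last 14 bases of mt-Nd6 and of mt-Nd5 overlap on opposite strands, and whether counting used the strand is not given in the sources used here.

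The mitochondrial genes fell into an abundant and a scarce set. mt-Nd1, mt-Nd2, mt-Nd4, mt-Nd5, mt-Nd6, mt-Cytb and mt-Co1 stood at 346 to 3401 FPKM. mt-Co2, mt-Co3, mt-Atp6, mt-Nd3, mt-Nd4l and mt-Atp8, which lie on the same strand as mt-Co1, stood at 12.3, 8.34, 9.60, 9.39, 4.58 and 1.23 FPKM, and mt-Atp8, at 2 to 6 counts in a library, was not tested. The scarce set coincided with copied sequence. Of the 100-base words in mt-Co2, mt-Co3, mt-Atp6, mt-Nd3 and mt-Nd4l, 97.6% to 99.9% also occur in annotated transcripts of other genes, against 60.8% for mt-Nd4, 30.8% for mt-Co1, 3.2% for mt-Nd2 and 0% for the other 5 genes, among them mt-Atp8. Only annotated transcripts were searched, so a copy without annotation, of mt-Atp8 for example, would not be seen.

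**Figure D5:**
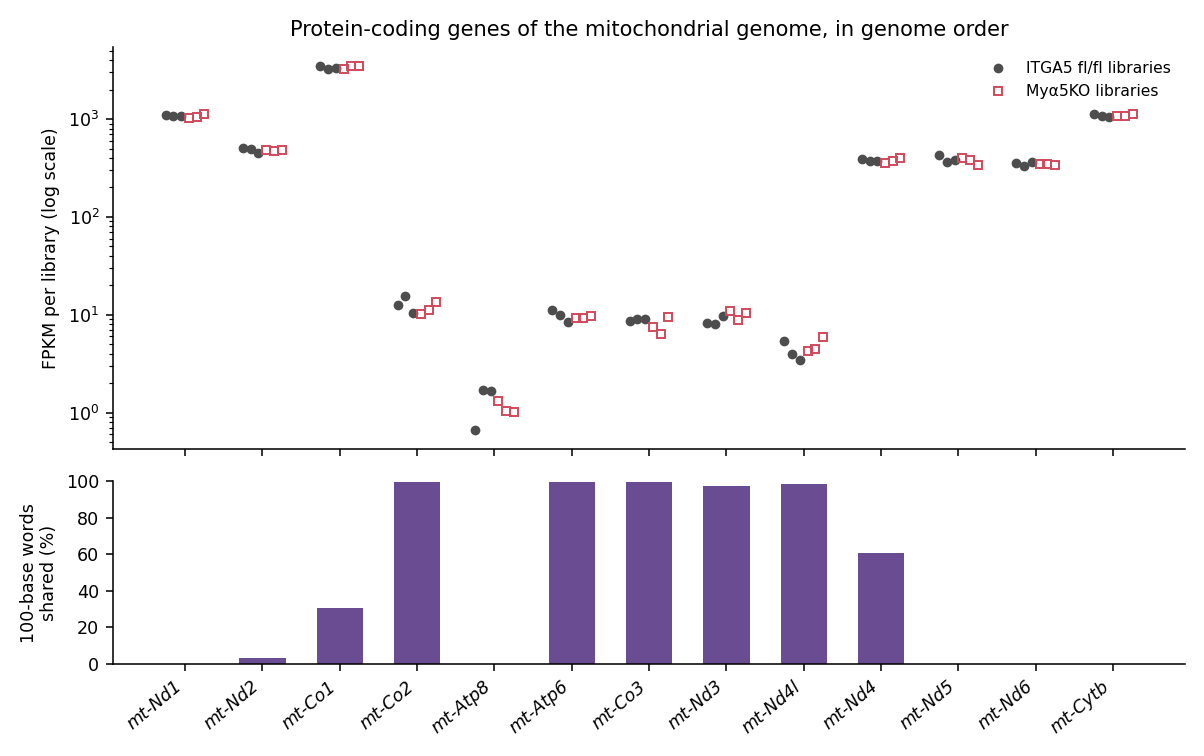
Upper panel, FPKM (log scale) of the 13 mitochondrial protein-coding genes in each library, in genome order, for ITGA5 fl/fl (filled circles) and Myα5KO (open squares) libraries, n = 3 each. Lower panel, percentage of the 100-base words of each gene that also occur in annotated transcripts of another gene. The 5 genes at 97.6% to 99.9% lie at 4.58 to 12.3 FPKM, together with mt-Atp8 at 1.23 FPKM, and the libraries of both groups overlap at each gene.

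Most of these words lie in 7 unprocessed pseudogenes on GRCm38 chromosome 1, minus strand, between 24611535 and 24616197, a nuclear copy of part of the mitochondrial genome. A further 3 on chromosome 2, minus strand, share words as well. Gm13339 has the 3.2% of mt-Nd2, Gm13340 has 5.5% of the words of mt-Co1 and Gm13341 has 15% of those of mt-Co2. Gm28661 at chr1:24614885-24615565 matches mt-Co2 over 681 bases without a difference. Gm10925, Gm28437 and Gm10222 match mt-Atp6, mt-Co3 and mt-Nd4l over 678, 783 and 294 bases, also without a difference. In the mitochondrial genome mt-Atp8 begins between mt-Co2 and mt-Atp6. The stretch between the end of Gm10925 (24614651) and the start of Gm28661 (24614885) lies in neither copy and was not compared with mt-Atp8. Gm28438 differs from mt-Nd3 by T3C, counted from the first base of the mitochondrial gene with its base first. The first 60 bases of mt-Co2 and of its copy are shown because their sequence alone cannot assign a read to either genome.
mt-Co2: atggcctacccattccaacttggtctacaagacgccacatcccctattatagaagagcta
Gm28661: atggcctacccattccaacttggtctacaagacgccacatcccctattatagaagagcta
By contrast, the copy of the abundant mt-Co1, Gm29216, holds only 492 bases of its 3′ part and starts with 6 differences, T1056A, C1057T, A1059G, A1060G, C1062A and A1066T. Positions 1054 to 1110 of mt-Co1 and the start of the copy are shown with the differing bases in capitals.
mt-Co1: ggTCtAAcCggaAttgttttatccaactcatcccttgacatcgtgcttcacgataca
Gm29216: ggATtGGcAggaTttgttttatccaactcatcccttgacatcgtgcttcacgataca

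The counts of the copies were of the order of those of the scarce genes for mt-Co2, mt-Co3, mt-Atp6 and mt-Nd4l, but not for mt-Nd3, which had 43 to 71 counts while its copy Gm28438 had 3 to 15. mt-Co2 had 128, 183 and 127 counts in the controls and 132, 144 and 179 in Myα5KO libraries, while Gm28661 had 174, 160 and 135 counts and 176, 141 and 182 counts. mt-Co3 had 94 to 145 counts over the 6 libraries and Gm28437 had 88 to 193. mt-Co1, in contrast, had 81098 to 105336 counts and Gm29216 had 105 to 149. How reads that align to both genomes were counted is not given in the sources used here, so the level of mt-Co2, mt-Co3, mt-Atp6, mt-Nd3 and mt-Nd4l, and of their copies, is uncertain. Their fold changes, -0.14 for mt-Co2, -0.17 for mt-Co3, -0.05 for mt-Atp6, 0.22 for mt-Nd3 and 0.22 for mt-Nd4l, had standard errors of 0.14 to 0.30. The level of mt-Atp8, which was not tested, is uncertain as well, since copies without annotation were not searched.

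Letters bound by known regulators were more frequent in promoters of the nuclear members than in all promoters, though each kind was present in a minority. RefSeq windows on GRCm38.p6, from 250 bases before to 50 bases after the transcription start, were found for 76 of 93 nuclear symbols (81 promoters). The letters GCGCANGCG of nuclear respiratory factor 1 (NRF1), a regulator of respiratory genes, occurred on either strand in 23 of the 81 (28.4%), against 6.2% of all 32851 promoters. The ETS letters CCGGAAG, to which the regulator GABP (also named NRF2) can bind, occurred in 22.2% against 8.9%, the YY1 letters AAGATGG in 14.8% against 6.3%, and the SP1 letters GGGCGG in 44.4% against 35.7%. NRF1 or ETS letters were present in 43.2% of member promoters and 13.9% of all promoters. None of the 4 kinds was present in 19 of the 81 member promoters (23.5%), against 55.5% of all promoters. A match is a description of the sequence and not evidence of binding.

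The promoters of Sdhd, Cox8a and Atp5b, all of them abundant subunits of their complexes, are shown as examples with different sets of matches, in capitals and 5′ to 3′ on the strand of the gene. Sdhd, at chr9:50603800-50604099 on the minus strand, has NRF1, ETS and SP1 letters that begin at positions -79, -46 and -3, counted with the start base as 0. Cox8a, at chr19:7217567-7217866 on the minus strand, has ETS letters at -5 and 32. Atp5b, at chr10:128083057-128083356 on the plus strand, has SP1 letters at -199 and -45 and no NRF1 or ETS letters in this window. The window of Uqcr10, the highest nuclear subunit of complex III, has none of the 4 kinds of letters and is not shown.
Sdhd: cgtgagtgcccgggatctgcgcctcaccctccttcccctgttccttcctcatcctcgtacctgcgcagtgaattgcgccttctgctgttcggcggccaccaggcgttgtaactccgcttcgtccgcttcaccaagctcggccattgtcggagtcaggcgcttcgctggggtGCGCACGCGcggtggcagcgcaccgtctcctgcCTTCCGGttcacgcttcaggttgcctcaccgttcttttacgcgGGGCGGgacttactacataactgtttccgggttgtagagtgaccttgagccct
Cox8a: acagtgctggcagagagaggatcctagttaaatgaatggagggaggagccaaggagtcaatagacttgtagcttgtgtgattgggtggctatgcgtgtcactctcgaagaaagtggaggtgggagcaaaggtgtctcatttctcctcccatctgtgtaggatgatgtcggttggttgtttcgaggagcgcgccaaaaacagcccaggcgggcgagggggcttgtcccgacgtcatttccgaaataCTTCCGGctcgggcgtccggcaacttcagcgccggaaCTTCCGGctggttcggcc
Atp5b: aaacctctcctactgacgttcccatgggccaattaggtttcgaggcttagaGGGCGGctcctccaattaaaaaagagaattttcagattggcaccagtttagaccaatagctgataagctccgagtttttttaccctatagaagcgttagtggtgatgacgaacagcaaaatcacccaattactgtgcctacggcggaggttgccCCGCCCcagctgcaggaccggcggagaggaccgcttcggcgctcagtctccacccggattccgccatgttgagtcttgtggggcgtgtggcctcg
The fold changes of these genes were 0.03, -0.02 and 0.04.

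The genes around the respiratory chain were read from lists. Of 21 tested electron carriers and enzymes of ubiquinone synthesis, 1 was lower (4.76%, beside 5.19% of all genes), Gpd2, the mitochondrial glycerol-3-phosphate dehydrogenase that feeds electrons to ubiquinone. Gpd2 had 82.2, 70.8 and 72.6 CPM in ITGA5 fl/fl and 59.8, 57.7 and 48.5 CPM in Myα5KO libraries (log2 fold change -0.44, SE 0.09, edgeR adjusted p 0.00731). Cycs, which encodes cytochrome c, had a log2 fold change of 0.19 and was not called (edgeR adjusted p 0.134). The list also held Cyc1, the cytochrome c1 of complex III, whose name is outside the rule (log2 fold change -0.04, edgeR adjusted p 0.8005). Of 39 tested assembly factors outside the naming rule, 2 were called (5.13%, beside 8.75% of all genes). Coa3, a complex IV assembly factor, was higher (0.35, SE 0.10, edgeR adjusted p 0.0405) and Ttc19, a complex III assembly factor, was lower (-0.40, SE 0.09, edgeR adjusted p 0.0122).

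None of the 17 tested enzymes of the tricarboxylic acid cycle and pyruvate dehydrogenase passed the threshold, with 9 positive and 8 negative values. A list of nucleotide and phosphate carriers and porins also held the ATP synthase inhibitor Atpif1 and Usmg5. None of its 8 tested genes passed the threshold either. The sums of this list did not overlap, at 1520 to 1594 CPM in the controls and 1399 to 1487 CPM in Myα5KO libraries. Of 18 tested regulators of mitochondrial biogenesis, 0 were called, and the coactivator Ppargc1a was too scarce to be tested. Of 24 tested factors of mitochondrial RNA handling and translation, 1 was higher (4.17%, beside 3.56% of all genes), the elongation factor Gfm1 (0.33, SE 0.08, edgeR adjusted p 0.0247), and 18 of the 24 values were positive. Their sums did not overlap, at 370 to 384 CPM in the controls and 400 to 424 CPM in Myα5KO libraries. Of 77 tested mitochondrial ribosomal proteins 65 had a positive value, and Mrpl10 alone was called (0.42, SE 0.10, edgeR adjusted p 0.0244). This is 1.3% of the list, beside 3.56% of all genes called higher. The sums of these proteins overlapped, at 1128 to 1213 CPM in the controls and 1205 to 1320 CPM in Myα5KO libraries. Of 85 tested cytosolic ribosomal proteins 79 had a negative value, and Rps28, Rps29 and Rpl38 were called lower (3.53%, beside 5.19% of all genes).

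The respiratory chain also makes superoxide, and a last list held 7 genes of mitochondrial superoxide and peroxide defence. Of these, 2 were lower (28.6%, beside 5.19% of all genes). Sod2, the superoxide dismutase of the matrix, had 177, 192 and 219.6 CPM in ITGA5 fl/fl and 125, 130.0 and 118 CPM in Myα5KO libraries (log2 fold change -0.66, SE 0.08, edgeR adjusted p 0.000358). Prdx5, a peroxiredoxin, had -0.36 (SE 0.10, edgeR adjusted p 0.0365). The other 5 genes were not called, and 4 of the 7 values were positive.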

How the data were processed

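The series holds 6 RNA-seq libraries of magnetically enriched infarct macrophages, 3 per genotype, each assigned to its group and replicate number by its title. Per the submitters' processing notes and the study's methods, the authors aligned filtered reads to mm10 (GRCm38.p6) with TopHat2 2.0.9, ran Cufflinks 2.1.1 and counted reads per gene with HTSeq 0.6.1. The deposited counts are raw whole numbers per gene. The deposited FPKM equal the count divided by gene length and by a constant per library of 14952167 to 19352716, so both tables carry the same reads. Strand and multi-mapping settings are not given in the sources used here. The deposited columns hold no comparison of the authors.

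Genes were tested in R 4.3.3 with edgeR 4.0.16 and its quasi-likelihood test (TMM scaling, minimum count 10, minimum total 15, no covariate) on the whole table, with Benjamini-Hochberg adjustment over the 14522 tested genes and a threshold of 0.05. P-values are two-sided, fold changes set Myα5KO over the controls, and CPM use the TMM factors. DESeq2 1.42.0, limma 3.58.1 and other scalings, filters and left-out libraries were alternatives. The code was tested on simulated counts. All replicate pairs differed by more than sampling noise. Reads carry no molecular identifiers, and intervals rest on the spread between 3 hearts per group. Sequences and annotation came from GENCODE M21 and RefSeq, compared with Biopython 1.88.

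The members and gene lists were chosen with earlier results of these data known. Named were all mitochondrial members, any nuclear member past the threshold, the highest and the most positive and negative subunit per complex, the isoform pairs, and list genes past the threshold. The separated members, the assembly factors, Atp5b, the subunit c genes, Cycs, Ppargc1a, mt-Tn, Cd14, Fcgr1 and the chromosome 2 copies were named after their values were seen.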

Additional observations from a re-analysis of the deposited data

How the results depend on the processing

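No member was called under median-ratio or upper quartile scaling, scaling without chromosome MT, DESeq2, limma-voom, limma on log2(FPKM + 1) or log2(FPKM + 0.1), the table without a filter, a minimum of 10 counts in each library, protein-coding genes alone, an adjusted p of 0.01, or with any single library left out. The exception was scaling by library totals only, under which 3 nuclear members were called higher (Atp5o, Uqcrc2 and Ndufaf5, adjusted p at lowest 0.0305 by edgeR), and which turned 517 higher and 754 lower genes into 1212 and 518. This setting leaves out the scaling factors, and which scaling is nearer to the cells was not tested. All genes called numbered 1271 and moved to 472 with log2(FPKM + 1), 448 with log2(FPKM + 0.1), 470 at an adjusted p of 0.01 and 616 to 1091 with 1 library left out. The leave-one-out counts of called members were 0 in each direction for nuclear and mitochondrial members. They were lowest for all genes without ITGA5 fl/fl replicate 3 (616), ITGA5 fl/fl replicate 2 (723) and Myα5KO replicate 2 (819). Unadjusted p under 0.05 among members ranged from 2 to 20 genes. The share of all genes at that p was determined for the main fit alone. Signs of uncalled fold changes were not counted as reversals.

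Replicate numbers recur in both groups, but same-numbered libraries did not deviate together (correlations 0.05, -0.06 and 0.04), so no pairing was assumed. With the replicate number as a block, 0 members and 1181 genes were called, and 7 members had an unadjusted p under 0.05. Depth limits mt-Atp8 and Cox8b, which had at most 9 counts in a library and were not tested, and Cox7b2, Cox8c and the second Atp5o row had none.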
